A study of Mus musculus with 6 samples.

Results

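The replication-dependent histone genes of the mouse were described in 4 total RNA libraries from LSK cells, the Lin-, Sca-1+, Kit+ fraction of bone marrow that holds the blood stem cells and early progenitors. Members were all genes whose symbol starts with Hist1h, Hist2h, Hist3h or Hist4h, which gave 70 of 14468 gene identifiers listed in the files. The 70 identifiers carry 69 symbols, since Hist2h2bb has both a short and a long entry. They comprise 6 linker histone H1 genes, 19 H2A genes, 20 H2B genes, 12 H3 genes and 13 H4 genes. The Hist1 cluster on chromosome 13 holds 55 of them, and the other 15 lie in Hist2 on chromosome 3 (11 genes), Hist3 on chromosome 11 (3 genes) and Hist4 on chromosome 6 (1 gene).

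Replication-dependent histone genes supply the histones that package newly copied DNA, and their mRNAs accumulate in S phase and are degraded when DNA synthesis stops. Most of these mRNAs have no introns and end in a conserved stem-loop in place of a poly(A) tail. Slbp binds the stem-loop, and Npat drives transcription of the genes in a nuclear compartment called the histone locus body. A total RNA library captures such transcripts, which selection for poly(A) tails would largely miss.

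All cells came from C57BL/6 mice. The 4 groups were Setd2 KO and WT cells 8 months after pI-pC (old KO and old WT) and Setd2 KO and WT cells 4 weeks after pI-pC (young KO and young WT). Setd2 is the methyltransferase that trimethylates lysine 36 of histone H3, the allele is a conditional knockout, and pI-pC is the agent that induces the deletion; the labels give pI-pC for WT cells too. The Cre driver, the number of animals pooled and the mouse sex are not given in the sources used here. Each group has 1 library, so there is no spread between replicates, and every difference given compares 2 libraries without a test. The 2 bisulfite samples were not analysed here.

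Values are the authors' FPKM (fragments per kilobase of transcript, scaled to library depth), scaled between libraries, and differences are on the log2(scaled FPKM + 1) scale. Gene coordinates are as the files list them, on mm10. Setd2 itself stood at 15.5 in old KO and 15.3 in old WT, and 12.4 in young KO and 14.1 in young WT, and a value for the whole gene does not resolve the deleted exons. Of the markers used to sort the cells, Kit stood at 41.1 in old KO and 44.5 in old WT, and 52.9 in young KO and 61.0 in young WT, and Ly6a, which encodes Sca-1, at 4.18 in old KO and 8.80 in old WT, and 3.17 in young KO and 4.86 in young WT. Xist was listed in the old libraries alone and the Y-linked Eif2s3y in the young libraries alone, so age and the sex of the animals cannot be told apart. Plasma cell markers, 5 of 5 lower in old KO than in old WT, summed to 199 in old KO and 2127 in old WT, and 55.1 in young KO and 42.1 in young WT. Neutrophil markers, 7 of 7 higher in old KO than in old WT, summed to 1674 in old KO and 900.1 in old WT, and 669.7 in young KO and 719 in young WT. Most of each sum was Elane and Mpo. Elane stood at 799 in old KO and 491 in old WT, and 300 in young KO and 371 in young WT. Camp, Ltf, Ngp and S100a9 were listed in neither young library. S100a8 stood at 123 in old KO and 19.5 in old WT, and 1.72 in young KO and 2.49 in young WT. The part of these cells in the histone values was not tested. In bulk RNA, fewer cells that transcribe a gene and less RNA per cell cannot be told apart.

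The promoters that carry the main differences and the main duplicated genes are shown first, as 300 bases around the gene start from RefSeq (GRCm38.p6), 5′ to 3′ on the gene's own strand. Capitals mark CCAAT, or TATAAA, or ATTTGCA, on either strand. The first are of Hist2h2aa1 (chr3:96245247-96245546, plus strand), the member with the largest difference in young cells, and its duplicate Hist2h2aa2 (chr3:96240325-96240624, minus strand).
Hist2h2aa1: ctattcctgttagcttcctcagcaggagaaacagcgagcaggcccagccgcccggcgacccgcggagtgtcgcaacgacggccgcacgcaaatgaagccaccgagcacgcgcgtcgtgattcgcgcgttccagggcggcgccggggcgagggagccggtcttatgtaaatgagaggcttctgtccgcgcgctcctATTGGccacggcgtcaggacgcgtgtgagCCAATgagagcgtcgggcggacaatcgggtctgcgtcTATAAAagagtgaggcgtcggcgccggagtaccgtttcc
Hist2h2aa2: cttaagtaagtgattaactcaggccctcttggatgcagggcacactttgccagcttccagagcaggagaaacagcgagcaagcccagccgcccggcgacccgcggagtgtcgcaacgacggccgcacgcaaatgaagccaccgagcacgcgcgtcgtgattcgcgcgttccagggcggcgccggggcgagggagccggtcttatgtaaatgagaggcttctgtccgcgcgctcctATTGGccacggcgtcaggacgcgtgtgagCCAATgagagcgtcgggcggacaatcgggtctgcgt

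The H4 genes Hist1h4m (chr13:21811496-21811795, plus strand) and Hist1h4n (chr13:21832148-21832447, minus strand) are shown because they share a run of 285 bases, while their differences between old KO and old WT were 0.94 and -0.03.
Hist1h4m: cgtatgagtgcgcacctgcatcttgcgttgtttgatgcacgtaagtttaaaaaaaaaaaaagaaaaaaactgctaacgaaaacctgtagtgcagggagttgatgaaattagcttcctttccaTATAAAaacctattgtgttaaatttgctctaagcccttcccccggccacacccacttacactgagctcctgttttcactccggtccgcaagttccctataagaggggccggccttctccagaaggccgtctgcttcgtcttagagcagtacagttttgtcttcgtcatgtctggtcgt
Hist1h4n: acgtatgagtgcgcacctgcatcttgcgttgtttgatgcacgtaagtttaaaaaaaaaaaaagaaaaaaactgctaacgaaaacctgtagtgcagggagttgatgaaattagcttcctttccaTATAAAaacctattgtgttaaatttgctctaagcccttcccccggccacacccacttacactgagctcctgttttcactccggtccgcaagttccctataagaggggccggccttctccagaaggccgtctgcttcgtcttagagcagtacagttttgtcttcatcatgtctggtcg

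Hist1h3i (chr13:21783348-21783647, minus strand) had the highest mean level, and Hist1h1d (chr13:23554782-23555081, plus strand) was the highest linker histone gene.
Hist1h3i: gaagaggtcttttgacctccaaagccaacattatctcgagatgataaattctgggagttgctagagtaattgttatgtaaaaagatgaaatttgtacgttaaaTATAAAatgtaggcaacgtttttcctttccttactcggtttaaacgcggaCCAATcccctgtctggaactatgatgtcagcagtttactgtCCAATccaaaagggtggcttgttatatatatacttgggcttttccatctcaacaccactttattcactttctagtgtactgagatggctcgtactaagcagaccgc
Hist1h1d: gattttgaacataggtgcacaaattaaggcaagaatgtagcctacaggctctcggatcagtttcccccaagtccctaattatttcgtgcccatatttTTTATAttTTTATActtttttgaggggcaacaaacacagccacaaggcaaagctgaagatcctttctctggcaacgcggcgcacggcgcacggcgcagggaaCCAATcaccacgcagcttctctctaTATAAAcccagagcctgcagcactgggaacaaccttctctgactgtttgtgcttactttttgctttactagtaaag

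Hist1h2ak (chr13:21753863-21754162, minus strand) and Hist1h2bn (chr13:21753826-21754125, plus strand) are an H2A gene and an H2B gene that face away from each other, and 263 bases of their windows are the same DNA read on opposite strands.
Hist1h2ak: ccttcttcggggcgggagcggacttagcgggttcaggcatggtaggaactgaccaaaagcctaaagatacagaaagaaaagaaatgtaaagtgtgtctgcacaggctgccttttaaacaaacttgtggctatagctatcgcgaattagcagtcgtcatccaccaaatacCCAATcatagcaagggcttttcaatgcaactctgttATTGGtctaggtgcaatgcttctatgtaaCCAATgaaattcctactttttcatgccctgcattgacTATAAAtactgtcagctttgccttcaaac
Hist1h2bn: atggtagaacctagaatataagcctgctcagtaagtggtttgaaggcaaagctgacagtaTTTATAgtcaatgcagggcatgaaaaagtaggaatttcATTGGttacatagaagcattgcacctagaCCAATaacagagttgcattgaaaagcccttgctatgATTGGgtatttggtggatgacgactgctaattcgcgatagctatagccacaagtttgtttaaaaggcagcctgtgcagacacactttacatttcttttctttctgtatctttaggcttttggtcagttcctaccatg

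RefSeq promoters were found for 62 of the 70 members. These gave 62 promoters at distinct positions, since both entries of Hist2h2bb share 1 and Hist1h2be has 2, and all counts are over promoters. The 62 are not independent sequences. Hist1h2bq and Hist1h2br are identical over 300 bases, and Hist1h4m and Hist1h4n share 285. In 9 head-to-head pairs 233 to 279 bases are the same DNA, so a motif there counts for both genes. The counts were not corrected for this. CCAAT, the letters bound by the factor NF-Y, was present in 53 of the 62 (85.5%), against 37.4% of 32851 promoters of the same length. It was present in all 50 promoters of H1, H2A, H2B and H3 genes and in 3 of 12 H4 promoters (25%). TATAAA, the letters of a TATA box, was present in 34 promoters (54.8%), against 13.6% of all promoters. ATTTGCA, letters of the octamer bound by Oct factors, was present in 13 promoters (21.0%), against 4.02% of all promoters, and these were 6 of H2A and 7 of H2B genes. Both strands were searched and each motif was counted by itself, whether or not it overlapped another. A match describes the letters in this window and was not tested as a binding site.

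Summed over its members, the histone gene set took up 7.93% of summed FPKM in old KO and 5.13% in old WT, and 6.48% in young KO and 6.88% in young WT. Immunoglobulin segments took up 4.63% in old KO and 26.7% in old WT, and 0.863% in young KO and 0.618% in young WT, and the genes Gm26917 and Gm42418 between 12.4% and 25.5%. With both left out of the total, the histone share was 10.2% in old KO and 8.43% in old WT, and 8.79% in young KO and 8.49% in young WT. The mean level was 100 or more for 47 members and under 10 for 6 members.

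For the 57 members with a locus of at most 1 kb, FPKM times length was a whole multiple of 1 step. This held for every listed value, within 0.05 of a step. The step of each library was fitted to low values of short genes and then to these same members. A step fixed beforehand would give 10% by chance, which is not the reference for a fitted step. Among all low values of genes shorter than 1500 bp, 60.5% to 70.3% were whole by the same rule. The median member then held 2061 counted units in old KO and 1727 in old WT, and 784 in young KO and 761 in young WT. Median counting error was 2.20% of the value in old KO and 2.41% in old WT, and 3.57% in young KO and 3.63% in young WT. These errors cover counting alone and say nothing of the spread between animals.

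**Figure D1:**
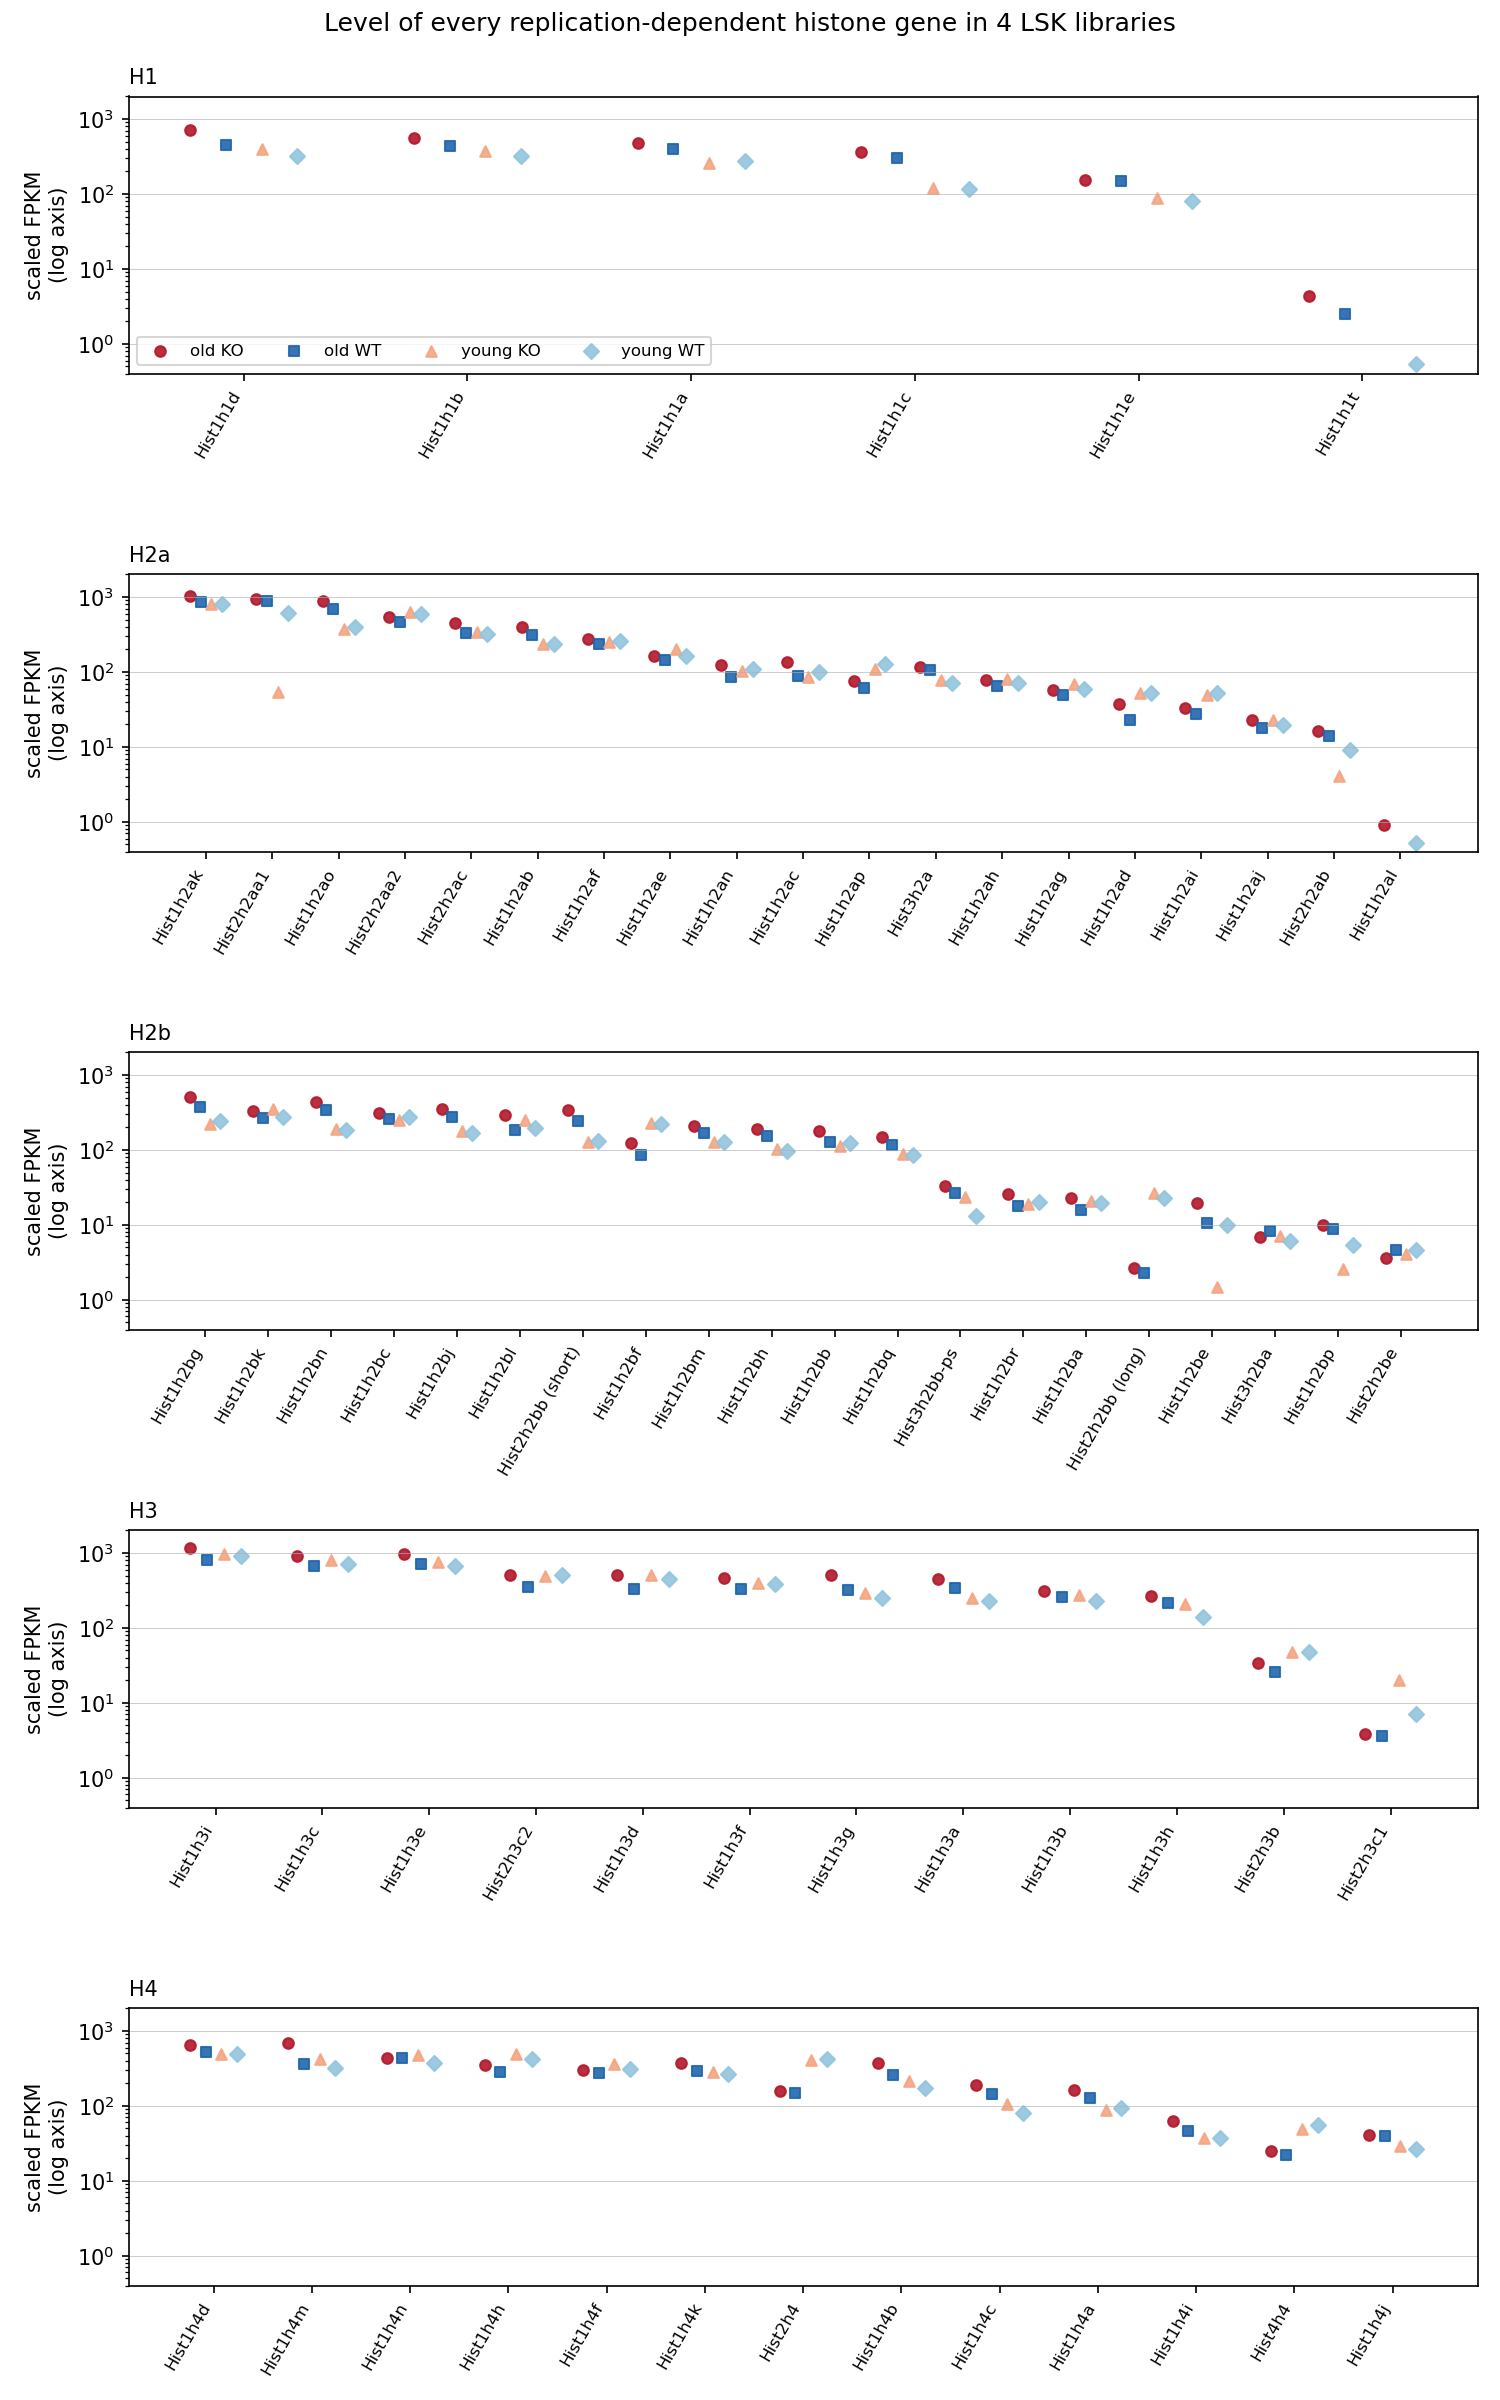
Level of every member in each library, in scaled FPKM on a log axis, with 1 panel per histone class, genes ordered within the class, and 1 symbol per library; values not listed in a file are not drawn. Most members lie close together across the libraries, and Hist2h2aa1 in young KO lies far below its other 3 values.

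In old cells, histone genes of every class were higher in KO than in WT. Of 69 measured members, 66 were above 0 in the log2 difference and 3 below, against 50.4% of 12486 measured genes above 0. The median difference was 0.34, against 0.00 over all genes, and the summed level was 21113 in old KO and 16202 in old WT, and 15663 in young KO and 15032 in young WT. No member reached a 2-fold difference in either direction, against 1.65% of all measured genes higher and 2.66% lower, 4.31% in all. Among 56 members with counted units in both libraries, 49 were higher in old KO by more than the 95% counting interval and 0 were lower. Of all 374 genes with such units, members included, 27.3% were higher and 7.75% lower by the same rule. The interval narrows as units rise, and these genes were not matched to the members in units. The 2 shares therefore differ in part by level.

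In young cells the difference was smaller and mixed in direction. Of 68 measured members, 44 were above 0 and 24 below, against 50.4% of 12416 measured genes above 0, with a median of 0.07 against 0.00 over all genes. Without scaling between the libraries, 27 of the 68 were above 0 and the members' median was -0.04, with the median of all genes at -0.10. Of the 68, 1 member (Hist2h3c1) was at least 2-fold higher, against 1.01% of all genes, and 2 (Hist2h2aa1 and Hist1h2be) at least 2-fold lower, against 0.701% (1.72% in either direction). Among 55 members with counted units, 21 were higher in young KO and 5 lower by more than the counting interval. Of all 379 genes with such units, members included and again not matched in units, 9.76% were higher and 7.65% lower. Across both ages, 42 of 68 members were higher in KO at each age (26.2% of 11879 genes measured at both), 1 was lower at each age (25.3%), and 23 were higher in old KO but lower in young KO (24.4%). No member differed 2-fold in the same direction at both ages.

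**Figure D2:**
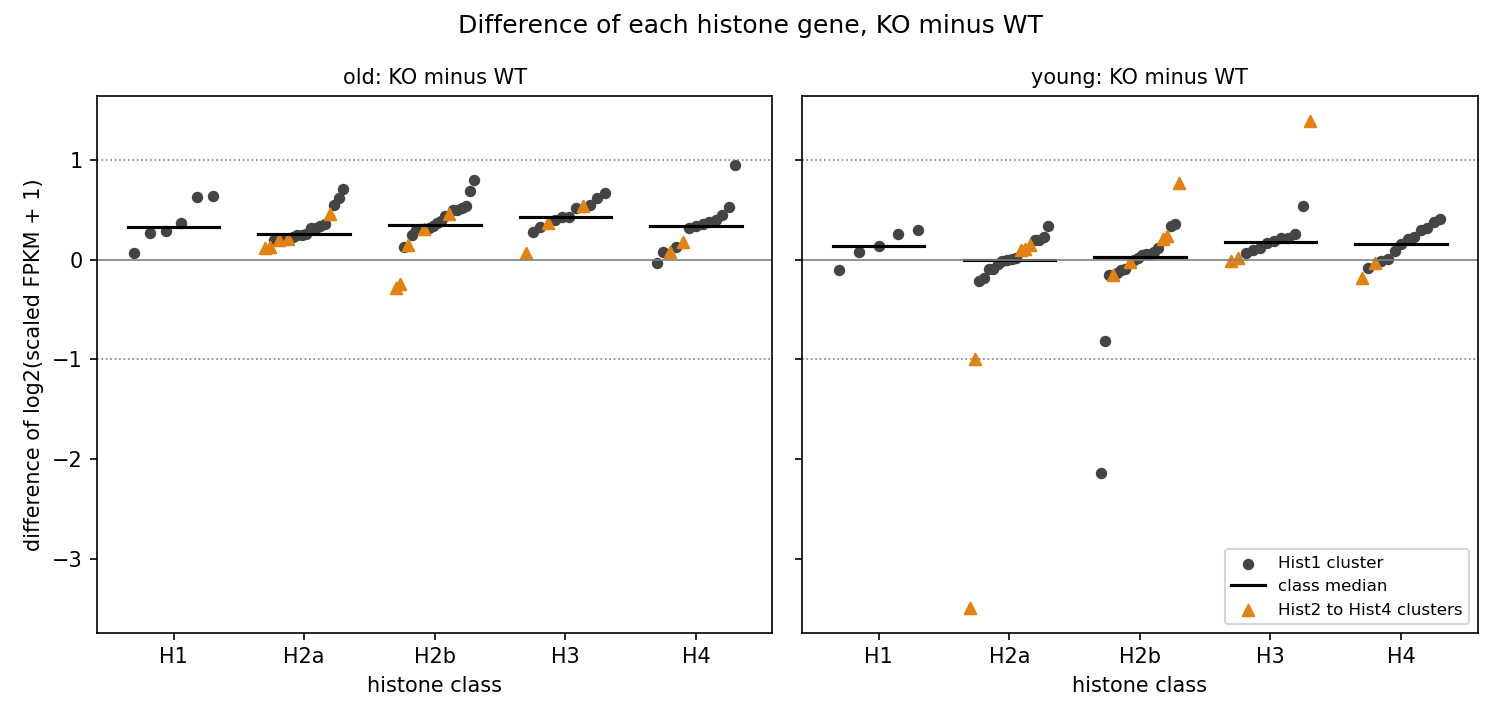
Difference between KO and WT for each measured member, on the log2(scaled FPKM + 1) scale, by histone class, with old cells left and young cells right; points are genes of the Hist1 cluster, triangles genes of Hist2 to Hist4, and lines class medians. Nearly all old values lie above 0, and young values lie around 0 with Hist2h2aa1 at -3.49 and Hist1h2be at -2.14.

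The linker histone H1 binds the DNA between nucleosomes, and all 6 H1 genes were higher in old KO than in old WT (median 0.32). Hist1h1d (ENSMUSG00000052565, chr13:23555087-23555830) stood at 707 in old KO and 456 in old WT, and 401 in young KO and 326 in young WT, a difference of 0.63 in old cells and 0.30 in young cells. Old KO was the highest of the 4 libraries for this gene and young WT the lowest. Hist1h1c, the 1 H1 gene with a locus over 1 kb, stood at 367 in old KO and 305 in old WT, and 122 in young KO and 116 in young WT. Both old libraries were above both young libraries, by 1.58 in KO and 1.39 in WT. Hist1h1t, a testis linker histone, was listed at 4.42 in old KO and 2.50 in old WT, was not listed in young KO and stood at 0.54 in young WT. The summed H1 level was 2282 in old KO and 1748 in old WT, and 1248 in young KO and 1117 in young WT.

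H2A and H2B pair as dimers in the nucleosome. All 18 measured H2A genes were higher in old KO than in old WT (median 0.25), while 9 of 18 were higher in young KO than in young WT (median -0.00). Hist1h2ak, the highest H2A gene, stood at 1028 in old KO and 864 in old WT, and 815 in young KO and 806 in young WT. Hist1h2ao stood at 895 in old KO and 701 in old WT, and 371 in young KO and 398 in young WT, with differences of 0.35 in old cells and -0.10 in young cells. Both old libraries were above both young libraries for this gene. Hist1h2ad, a low H2A gene, had one of the largest old differences (0.70) and stood at 37.9 in old KO and 22.9 in old WT, and 52.8 in young KO and 52.6 in young WT. Hist1h2al, annotated by RefSeq as a transcribed pseudogene, was listed at 0.90 in old KO and 0.52 in young WT and was not listed in old WT or young KO, so it was not measured in any comparison. The summed H2A level was 5392 in old KO and 4466 in old WT, and 3577 in young KO and 4065 in young WT.

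Of 20 H2B entries, 18 were higher in old KO than in old WT (median 0.35) and 11 in young KO than in young WT (median 0.03). Hist1h2bg, the highest by mean level, stood at 515 in old KO and 379 in old WT, and 223 in young KO and 241 in young WT. Hist1h2bl stood at 295 in old KO and 183 in old WT, and 248 in young KO and 194 in young WT, with differences of 0.68 and 0.35 in old and young cells, so that KO was above WT at both ages. The 2 H2B genes lower in old KO were low ones. Hist2h2be stood at 3.60 in old KO and 4.59 in old WT, and 4.09 in young KO and 4.65 in young WT, and Hist3h2ba at 6.81 in old KO and 8.26 in old WT, and 7.16 in young KO and 6.07 in young WT. Hist3h2bb-ps, annotated by RefSeq as a transcribed pseudogene, had a young difference of 0.76 and stood at 33.1 in old KO and 26.5 in old WT, and 23.3 in young KO and 13.3 in young WT. The summed H2B level was 3539 in old KO and 2691 in old WT, and 2333 in young KO and 2230.0 in young WT.

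Hist1h2be has a listed locus of 37383 bp, far longer than a histone coding region, and stood at 19.3 in old KO and 10.7 in old WT, and 1.48 in young KO and 9.90 in young WT. Young KO was the lowest library and old KO the highest, and the young difference was -2.14 with the pseudocount of 1, -1.20 with 5 and -2.66 with 0.1. Hist1h2bp, at 1753 bp, stood at 9.86 in old KO and 8.94 in old WT, and 2.59 in young KO and 5.31 in young WT. The long entry of Hist2h2bb (9281 bp) stood at 2.62 in old KO and 2.26 in old WT, and 27.0 in young KO and 22.7 in young WT, and the short entry (381 bp) at 337 in old KO and 245 in old WT, and 128 in young KO and 130.1 in young WT. Hist1h2bc, Hist1h2bq and Hist1h2br also have loci over 1 kb, and their KO differences ranged between -0.16 and 0.53. How FPKM was shared between overlapping or spliced entries was not given in the sources used here.

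H3 and H4 form the tetramer at the nucleosome core, and H3 carries the lysine that Setd2 methylates. All 12 H3 genes were higher in old KO than in old WT (median 0.43), the highest class median, and 11 of 12 in young KO than in young WT (median 0.18). Hist1h3i (ENSMUSG00000101972, chr13:21782960-21783370) stood at 1159.9 in old KO and 794 in old WT, and 973 in young KO and 909 in young WT, with differences of 0.55 and 0.10 in old and young cells. Old WT was the lowest of its 4 libraries. Hist1h3c stood at 900.4 in old KO and 669 in old WT, and 812 in young KO and 723 in young WT. Hist1h3e stood at 958 in old KO and 714 in old WT, and 767 in young KO and 663 in young WT. For both genes each KO library was above the WT library of its age. Hist1h3g had the largest old difference among H3 genes (0.67) and stood at 512 in old KO and 321 in old WT, and 289 in young KO and 248 in young WT. Hist1h3h stood at 267 in old KO and 213 in old WT, and 206 in young KO and 141 in young WT, with a young difference of 0.54. The summed H3 level was 6073 in old KO and 4341 in old WT, and 5052 in young KO and 4538 in young WT.

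Of 13 H4 genes, 12 were higher in old KO than in old WT (median 0.34) and 9 in young KO than in young WT (median 0.16). Hist1h4d, the highest by mean level, stood at 654 in old KO and 516 in old WT, and 496 in young KO and 493 in young WT. Hist1h4m (ENSMUSG00000069306, chr13:21811746-21812147) had the largest old difference of all members, 0.94, and stood at 700.4 in old KO and 364 in old WT, and 416 in young KO and 319.6 in young WT. Its old KO value stood well apart from the other 3 libraries. Hist1h4c stood at 189 in old KO and 143 in old WT, and 105 in young KO and 79.3 in young WT, with a difference of 0.40 in old cells and 0.40 in young cells. The summed H4 level was 3826 in old KO and 2955 in old WT, and 3454 in young KO and 3082 in young WT.

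**Figure D3:**
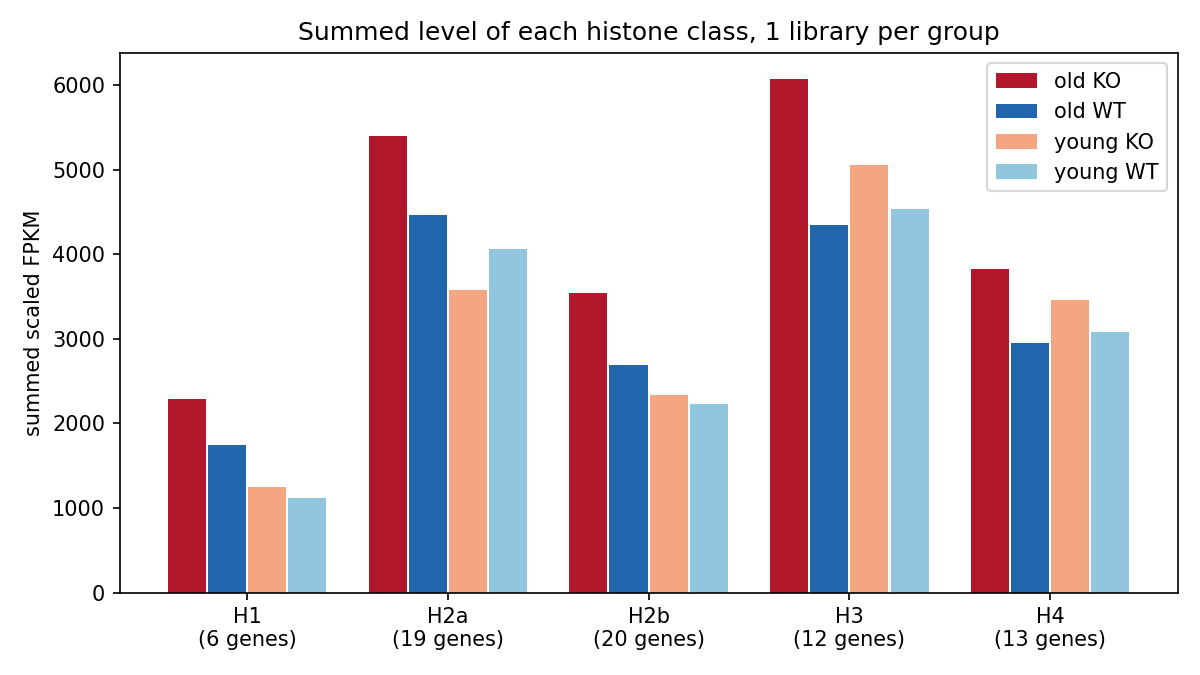
Summed scaled FPKM of each histone class in each library, 1 bar per library and no error bar, since each group has 1 library. Old KO has the highest bar in every class, and H2A is the class in which the young KO bar lies below young WT.

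By cluster, Hist1 genes had a median difference of 0.36 in old cells (53 of 54 above 0) and 0.07 in young cells (36 of 53 above 0). Genes of Hist2 to Hist4 had medians of 0.17 (13 of 15) and 0.01 (8 of 15). The summed Hist1 level was 17942 in old KO and 13578 in old WT, and 13329 in young KO and 12206 in young WT. The summed Hist2 to Hist4 level was 3171 in old KO and 2624 in old WT, and 2335 in young KO and 2825 in young WT, and of the cluster sums this was the one in which young KO lay below young WT. Hist2h2aa1 decided that order: without it the log2 ratio of summed levels was 0.047 in place of -0.28, and the H2A ratio 0.031 in place of -0.18. Within Hist1, genes less than 100 kb apart form blocks of 19, 5 and 29 genes, whose median old differences were 0.35, 0.30 and 0.40.

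Hist2h2aa1 (ENSMUSG00000064220, chr3:96245497-96246082) was the member with the largest young difference, -3.49, against 0.11 in old cells. It stood at 945 in old KO and 875 in old WT, and 54.1 in young KO and 617 in young WT, and young KO alone was low. Its locus overlaps the listed gene Gm20634, which stood at 2.92 in old KO and 2.75 in old WT, and 185 in young KO and 5.48 in young WT, and there young KO alone was high. The entry of Gm20634 spans 2956 bp and that of Hist2h2aa1 586 bp, so their FPKM cannot be added. Multiplied by locus length in kb, Hist2h2aa1 gave 554 in old KO and 513 in old WT, and 31.7 in young KO and 362 in young WT, and Gm20634 gave 8.63 in old KO and 8.14 in old WT, and 548 in young KO and 16.2 in young WT. The sum of these products was 563 in old KO and 521 in old WT, and 579.8 in young KO and 378 in young WT, so that young KO was not below young WT in this sum; the transcript length of Gm20634 was not used here. The duplicate Hist2h2aa2 stood at 537 in old KO and 465 in old WT, and 641 in young KO and 599 in young WT, with no such gap. Hist2h3c1, an H3 gene that also overlaps Gm20634, stood at 3.82 in old KO and 3.60 in old WT, and 20.4 in young KO and 7.17 in young WT, a young difference of 1.39. Hist2h2ab stood at 16.2 in old KO and 14.0 in old WT, and 4.06 in young KO and 9.06 in young WT, and its overlapping gene Gm15444 at 8.16 in old KO and 4.70 in old WT, and 2.32 in young KO and 8.60 in young WT, both lower in young KO than in young WT. The use of strand by the authors was not given in the sources used here; reads of overlapping genes may be assigned to either gene, and these values are uncertain.

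Several members are near-identical copies whose reads the authors' counting could split, so their single values are uncertain. Hist1h2bq and Hist1h2br have promoters identical over all 300 bases, and the pair summed to 176 in old KO and 132 in old WT, and 106 in young KO and 107 in young WT. The old difference was 0.94 for Hist1h4m and -0.03 for Hist1h4n, and Hist1h4n stood at 432 in old KO and 441 in old WT, and 471 in young KO and 379 in young WT. Their sum was 1132 in old KO and 805 in old WT, and 887 in young KO and 699 in young WT, a log2 ratio of 0.49 in old cells and 0.34 in young cells. Hist2h3c2 stood at 503 in old KO and 346 in old WT, and 498 in young KO and 502 in young WT. Its promoter shares a run of 231 bases with that of Hist2h3c1. Hist1h2ap, which shares 200 bases with Hist1h2ao, stood at 76.8 in old KO and 61.5 in old WT, and 111 in young KO and 129 in young WT, and was lower in both old libraries than in both young ones while Hist1h2ao was higher.

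**Figure D4:**
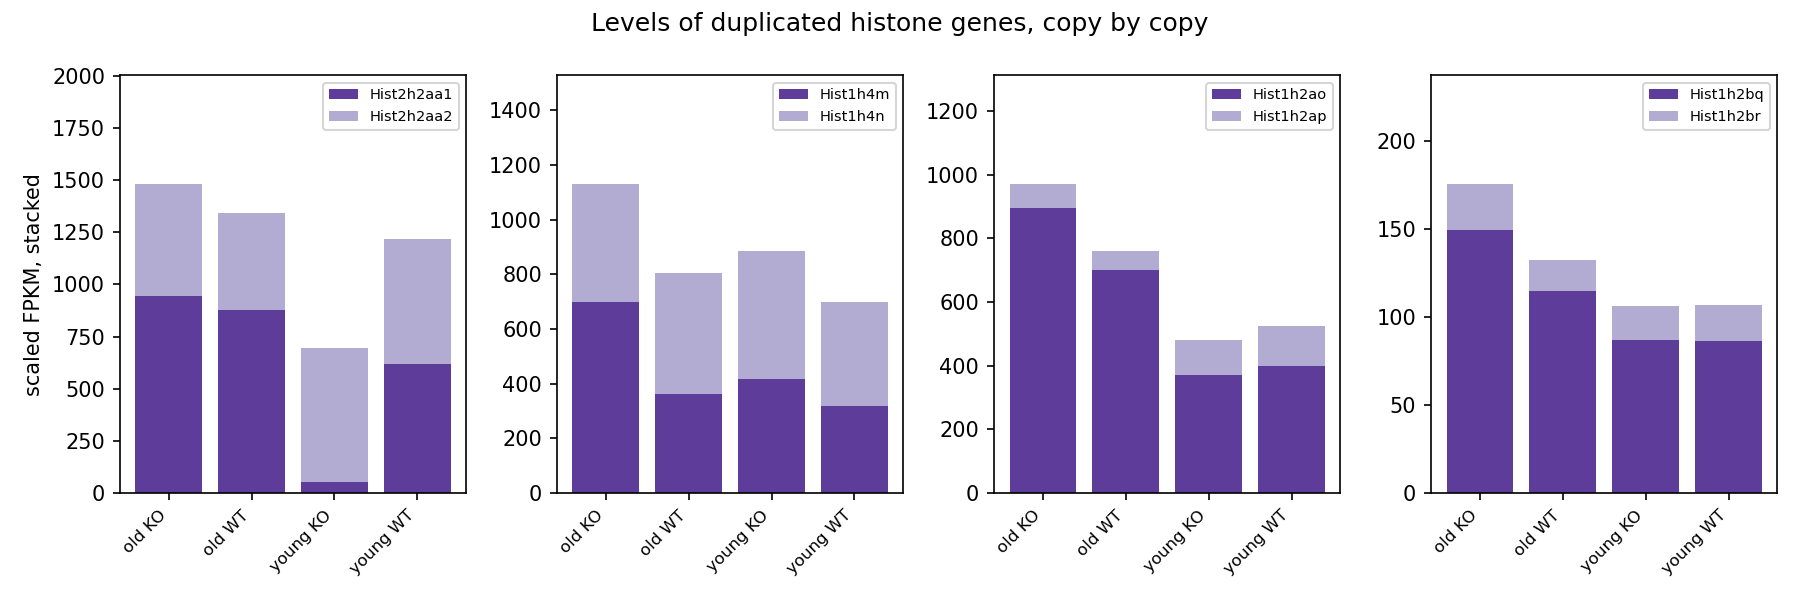
Stacked scaled FPKM of duplicated histone genes in each library, 1 colour per copy and 1 bar per library; the longer entry Gm20634, which overlaps Hist2h2aa1, is not drawn. The copies of a pair take different shares of the sum in different libraries, and the part of Hist2h2aa1 in young KO, 54.1, is far smaller than in young WT, 617.

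Head-to-head H2A and H2B genes share a stretch of promoter, and 9 such pairs have starts 236 to 302 bp apart. Pairs were sought only among the 62 members with a RefSeq promoter. Gaps between members that do not form a pair were not computed. The median gap between the log2 differences of the 2 genes of a pair was 0.20 between KO and WT in old cells and 0.14 in young cells. Between old and young cells the median gap was 0.86 in KO and 0.81 in WT.

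Between ages, members differed in both directions. These comparisons use the same 4 libraries as the KO comparisons, so they are not independent of them. In KO, 49 of 69 members were higher in old than in young cells (49.8% of all measured genes were), with a median of 0.39. There 10 were 2-fold higher and 3 lower, against 4.95% and 2.25% of all genes (7.2% in either direction). Among the 10 were Hist2h2aa1 (4.10), Hist1h2be (3.04), Hist2h2ab (1.76) and Hist1h2bp (1.60), each lowest in young KO, and Hist1h1t, not listed in young KO. The 3 lower were the long entry of Hist2h2bb, Hist2h3c1 and Hist2h4. Several of these values are uncertain, as given above. In WT, 39 of 69 were higher in old cells (49.2% of all genes), with a median of 0.11; 2 were 2-fold higher and 6 lower, against 4.22% and 1.34% (5.56% in either direction). Of 69 members, 37 were higher in old cells in both genotypes (32.9% of 12096 genes measured in both), 18 lower in both (34.3%) and 14 opposite (32.8%).

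The H1 genes were the class with the highest age medians, 0.86 in KO and 0.70 in WT, with all 6 higher in old cells in each genotype. Hist1h1t was very low in young WT and not listed in young KO. Without it the medians were 0.82 in KO and 0.52 in WT. Hist2h4, an H4 gene of the Hist2 cluster, went the other way and stood at 159 in old KO and 150.3 in old WT, and 410.0 in young KO and 421 in young WT, lower in old cells by more than 2-fold in each genotype. Hist4h4, the only gene of its cluster, stood at 24.9 in old KO and 22.0 in old WT, and 48.7 in young KO and 55.6 in young WT. Hist3h2a, the highest gene of Hist3, stood at 117 in old KO and 108 in old WT, and 77.9 in young KO and 70.4 in young WT. Its levels were higher in both old libraries than in both young ones. Hist1h2bf stood at 122 in old KO and 86.3 in old WT, and 229.9 in young KO and 219 in young WT, with the old libraries below the young.

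**Figure D5:**
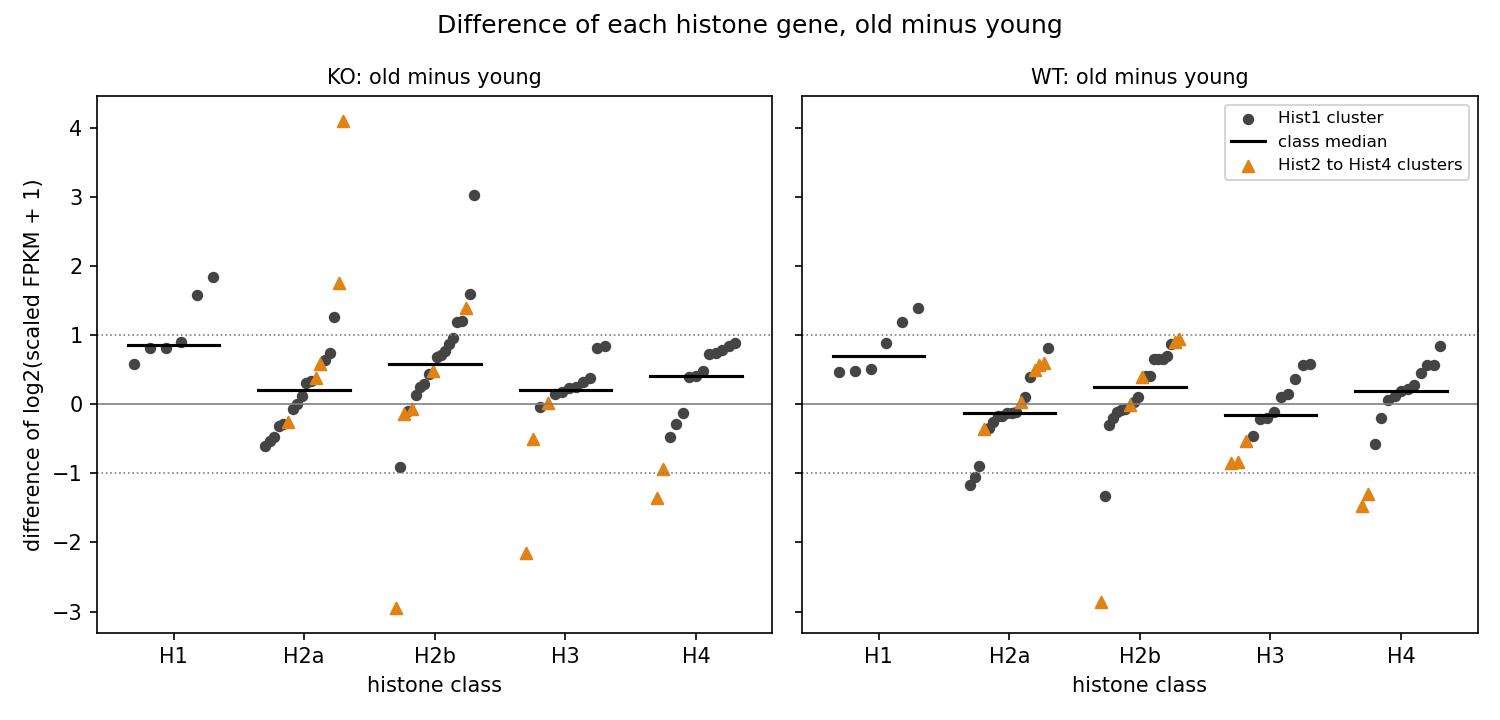
Difference between old and young cells for each measured member, on the log2(scaled FPKM + 1) scale, by histone class, with KO left and WT right; points are Hist1 genes, triangles genes of Hist2 to Hist4, and lines class medians. H1 genes all lie above 0 in both panels, and the other classes spread on both sides of 0.

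Genes that make and process histone mRNA had median differences close to 0. Of 35 listed genes of this list, 18 were above 0 in old cells (median 0.01) and 26 in young cells (median 0.07). Slbp stood at 6.88 in old KO and 6.50 in old WT, and 6.46 in young KO and 5.54 in young WT. Npat stood at 12.5 in old KO and 15.2 in old WT, and 15.1 in young KO and 14.9 in young WT. Casp8ap2, a component of the histone locus body, stood at 13.8 in old KO and 13.7 in old WT, and 13.2 in young KO and 12.3 in young WT. Lsm10 and Lsm11 belong to the U7 particle that cuts the histone mRNA end, and Lsm11 stood at 3.01 in old KO and 3.36 in old WT, and 4.96 in young KO and 4.82 in young WT. Lsm10 stood at 3.68 in old KO and 3.90 in old WT, and 3.06 in young KO and 4.20 in young WT. Zfp473 was listed in no library. The 1 gene past 2-fold was Ell2, an elongation factor that is abundant in plasma cells, at 7.44 in old KO and 23.4 in old WT, and 11.4 in young KO and 6.43 in young WT.

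Histone chaperones, which carry histones to DNA, had medians of 0.02 in old cells (17 of 30 above 0) and 0.00 in young cells (15 of 30). Genes of DNA replication in S phase had a median of -0.08 in old cells (12 of 45 above 0) and 0.01 in young cells (23 of 45). Fen1, the flap endonuclease of lagging-strand synthesis, was the 1 past 2-fold and stood at 7.13 in old KO and 18.7 in old WT, and 7.69 in young KO and 8.91 in young WT. Genes of mitosis had a median of 0.20 in old cells (24 of 24 above 0) and 0.25 in young cells (21 of 24). The histone genes and the mitosis genes were thus mostly higher in old KO than in old WT, while most S-phase genes were lower, and whether the share of cycling cells differed was not tested.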

How the data were processed

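Total RNA of sorted LSK cells was sequenced as 1 library each of old KO, old WT, young KO and young WT, grouped by the sample titles and labels. The deposited values are 1 FPKM per gene, with symbol and locus, per the file headers. Tools named in the submitters' processing notes, without role or order, are StringTie 1.3.0, HISAT2 2.0.4, Trimmomatic, FastQC, CASAVA and Bismark, and the builds are mm10 and GRCm38. Use of strand and the handling of reads that match several copies are not given in the sources used here. The files list only values of 0.5 or more, as seen in the values, and unlisted genes took the value 0.5, which makes folds against them lower bounds.

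Libraries were scaled by the median of ratios over 10939 genes at an FPKM of 1 or more in all 4, which divided old KO by 0.979, old WT by 0.982, young KO by 0.981 and young WT by 1.06. Differences were taken on the log2 scale after a pseudocount of 1, which understates differences of low genes. Genes counted as measured where 1 of the 2 libraries reached 1. With 1 library per group no p-value or SD was computed. The scaling and the 2-fold calls were tested on simulated data with planted changes and counting noise alone. That simulation held no spread between animals, no shift in cell makeup and no reads shared between copies. It therefore checks the calculation and cannot show how well the calls hold for these libraries. Python 3.11.15, numpy 2.4.6, pandas 2.3.3 and matplotlib 3.10.9 were used.

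Members, gene lists and alternatives were chosen with earlier results of these data known. Genes were named by rule: the 6 highest members, the highest of each class and cluster, the 5 largest differences in each direction in each KO comparison, loci over 1 kb, the highest member not listed in every library, and fixed genes of histone mRNA processing. Hist1h2bf, Hist1h2bn, Hist2h2aa2, Hist1h2al and Hist1h1a were named after their values were seen. Alternatives changed the pseudocount, scaling, filter on low values, value of unlisted genes, and members with overlapping or long loci.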

Additional observations from a re-analysis of the deposited data

Results flagged for a closer look

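Of 68 members, 25 ran in opposite directions between KO and WT at the 2 ages. Of these, 23 were higher in old KO and lower in young KO, against 24.4% of 11879 genes measured at both ages. The same direction was held by 42 members higher in KO and 1 lower, against 26.2% and 25.3% of those genes. The share of all genes that pass a counting interval at both ages was not computed. Described here are the summed levels and 7 members named by rule. For each of the 7 the difference passed a 95% counting interval at each age. Loci over 1 kb had no counted units, so the median interval of short members was used for them (0.091 in old cells, 0.142 in young cells). That interval may be too narrow for low members. Whether Hist1h2be, Hist1h2bp, Hist1h2bc and Hist4h4 would pass an interval of their own was not tested. The 1 other member that passed was Hist1h1a (0.28 in old cells, -0.10 in young cells), and Hist2h2ab (0.20 in old cells, -0.99 in young cells) did not pass in old cells. With 1 library per group the difference between the ages was not tested. The log2 ratio of summed H2A levels was 0.27 in old cells and -0.18 in young cells, and that of Hist2 to Hist4 was 0.27 in old cells and -0.28 in young cells. Hist2h2aa1 had a log2 difference of 0.11 in old cells and -3.49 in young cells. Hist1h2be had 0.79 in old cells and -2.14 in young cells. Hist1h2bp had 0.13 in old cells and -0.82 in young cells. With a pseudocount of 5 the young values were -1.20 for Hist1h2be and -0.44 for Hist1h2bp, and with 0.1 they were -2.66 and -1.01. Smaller opposite pairs were Hist1h2ao (0.35 in old cells, -0.10 in young cells), Hist1h2ap (0.32 in old cells, -0.21 in young cells), Hist1h2bc (0.25 in old cells, -0.16 in young cells) and Hist4h4 (0.17 in old cells, -0.19 in young cells).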

How the results depend on the processing

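The higher histone levels in old KO than in old WT kept their direction under all 12 alternatives, with the members' median between 0.31 and 0.35. The young difference did not: its median lay between -0.04 and 0.10, and without scaling 27 of 68 members were above 0 in place of 44. Members at least 2-fold lower in young KO numbered 4 with a pseudocount of 0.1, and 1 among members without an overlapping gene, among loci of at most 1 kb, or without Hist2h2aa1, in place of 2. Members 2-fold higher in young KO numbered 0 in place of 1 without overlapping or without long loci.

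The young log2 ratio of summed H2A levels was -0.18, and became 0.019 without overlapping loci and 0.031 without Hist2h2aa1. That of Hist2 to Hist4 was -0.28, and became 0.020 without overlapping loci, 0.047 without Hist2h2aa1 and -0.48 with loci of at most 1 kb; in old cells it was 0.38 in place of 0.27 without overlapping loci. These alternatives remove members by construction, Hist2h2aa1 among them in the first. Leaving out Hist2h2aa1, and adding the FPKM of Gm20634 to it, were chosen after seeing the data; the second adds values of unequal length and nothing rests on it.

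Between ages in KO, members 2-fold lower in old cells numbered 5 with upper-quartile scaling, 1 without overlapping loci and 0 with loci of at most 1 kb, in place of 3. In WT, members 2-fold higher in old cells numbered 1 in place of 2 with a pseudocount of 5, at an FPKM of 5 or more, among members listed in all 4 libraries and with loci of at most 1 kb, and members 2-fold lower numbered 3 in place of 6 with loci of at most 1 kb. The cause of the changes under other scalings and pseudocounts was not tested. No paired analysis was possible because each group has 1 library, and for the same reason no library could be left out.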

Other observations

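Across members, the difference between old KO and old WT was weakly related to the member's mean log2 level (Pearson's r 0.24, Spearman's rho 0.22, n = 69) and to locus length among short members (r -0.08, rho -0.06, n = 56). These describe genes that share the same 2 libraries, and genes are not independent replicates.

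Markers of other cell types also differed between the libraries, and their part in the histone values was not tested. Erythroid markers summed to 148 scaled FPKM in old KO and 225 in old WT, and 534 in young KO and 218 in young WT, with 8 of 8 higher in young KO than in young WT. In old cells they were mixed, with 3 higher in KO than in WT and 5 lower. Monocyte markers summed to 109 in old KO and 31.2 in old WT, and 25.8 in young KO and 37.0 in young WT, with 4 of 4 higher in old KO than in old WT. Mast cell and basophil markers summed to 42.5 in old KO and 86.3 in old WT, and 406 in young KO and 389.6 in young WT. Megakaryocyte markers summed to 17.1 in old KO and 30.6 in old WT, and 44.4 in young KO and 40.7 in young WT. B cell markers summed to 16.03 in old KO and 42.4 in old WT, and 6.43 in young KO and 9.79 in young WT. In the young libraries this was Cd79b alone. T and NK cell markers summed to 41.5 in old KO and 34.3 in old WT, and 47.9 in young KO and 58.5 in young WT. Nearly all of each sum was Nkg7, at 38.3 in old KO and 33.6 in old WT, and 47.9 in young KO and 58.5 in young WT. Cd3e, Cd3g and Klrb1c were listed in neither young library. Cd3e stood at 1.77 in old KO and 0.75 in old WT, and Cd3g and Klrb1c were listed in old KO alone. The 9 LSK markers summed to 174 in old KO and 185 in old WT, and 179 in young KO and 205 in young WT.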
